A study of Homo sapiens with 8 samples.

Results

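FRAX-597 was set against the solvent DMSO in THP-1, a human leukaemia line of monocytic type. The comparison used 4 of the 8 arrays of the series: the 2 arrays of cells given FRAX-597 at 2 µg/mL for 5 h, and the 2 DMSO arrays whose titles carry replicate 3 and 4, which received an equal volume of solvent for 5 h. All 4 came from the same line in the same serum-containing medium, with no genetic change stated by the labels. The other 4 arrays, DMSO 1 and 2 and IPA-3 at 6 µg/mL, entered only the estimate of the spread and, for genes with several probes, the choice of the probe. The study's title names the kinase PAK1 as a point of attack in myeloid leukaemia and myelodysplasia. Whether the arrays of a group stem from different cultures is not stated, so the p-values given reflect the scatter among arrays, and that scatter could be technical.

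FRAX-597 competes with ATP in group I p21-activated kinases (PAKs), serine/threonine kinases that act below the GTPases RAC and CDC42 on the cytoskeleton and on survival and growth signalling. Several gene programmes described below are textbook responses of a cell to changed nutrient or growth-factor supply. ATF4 is a transcription factor whose translation increases when amino acids are short or the endoplasmic reticulum is loaded, and it switches on amino acid synthesis and tRNA charging. MYC drives ribosome synthesis and cell growth, and SREBP2 (gene SREBF2) drives cholesterol synthesis when membrane sterols are low.

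The values are log2 levels, and a difference of 1 is a 2-fold change. FRAX-597 1 was compared with DMSO 3 (the first pair) and FRAX-597 2 with DMSO 4 (the second pair). The labels do not pair these arrays, and the numbers 1 and 2 of the FRAX-597 arrays only name them, so the pairs are a description and no test rests on them. The test was limma over all 14884 named genes without the pairs, with Benjamini-Hochberg adjustment and a threshold of 0.05. "Rose" and "fell" are used for genes that passed it. Across genes, which are not independent replicates, the first and the second pair's differences correlated at r = 0.40, and these pairs share no array. The median gene moved by -0.04 in the first pair and by -0.00142 in the second, and the SD over genes was 0.32 and 0.26. Correlations among the 4 arrays over the named genes lay between 0.969 and 0.990.

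Several transcripts of the labelled line had high levels. Levels in the 4 arrays lay between 11.68 and 12.09 for the lysosomal macrophage protein CD68, between 11.28 and 11.40 for the granule protein AZU1, between 9.09 and 10.13 for the growth factor receptor CSF1R and between 9.08 and 9.33 for the myeloid factor SPI1. Of 22 markers listed for the line 12 were measured. Of these, 10 were above the median of all probes, 6.03, which serves below as a yardstick for a low signal. MEIS1 (4.77 to 4.91) and CD163 (4.77 to 5.99) lay below it, and MPO (6.17 to 6.46) and FLT3 (6.33 to 6.93) little above it. No marker of the T cell, B cell, erythroid, platelet, epithelial, fibroblast, endothelial or neuronal lists of defining markers that were fixed for this check, with 2 to 5 members measured in each, passed limma (0 called in each). Those calls concern a change with FRAX-597, not the presence of a cell type. By their mean over the 4 arrays, 3 of 5 T cell, 1 of 2 B cell, 2 of 2 erythroid and 2 of 3 platelet markers were above 6.03. So were 3 of 5 epithelial, 1 of 3 endothelial, 1 of 3 neuronal and 0 of 2 fibroblast markers. The epithelial KRT18 lay between 9.44 and 9.74 and the endothelial PECAM1 between 8.73 and 9.21. The 2 fibroblast markers measured, DCN and LUM, were below 4.81 in all 4 arrays (highest 4.81 for LUM, 3.63 for DCN). PAK1, PAK3 and PAK6 have no named probe and were not analysed here. PAK2 had levels of 9.42 and 9.45 with DMSO and of 9.45 and 9.61 with FRAX-597, PAK4 of 7.74 and 7.62 against 7.84 and 7.61, and PAK5, whose probe was below 6.03, of 5.32 and 5.26 against 5.75 and 5.11. The groups overlapped for all 3. The log2 changes of PAK2 and PAK4 were 0.09 (SE 0.11; limma adjusted p = 0.959) and 0.05 (SE 0.14; 0.998).

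Genes that moved alike by at least 1.5-fold in both pairs were mostly higher with FRAX-597. Without a limit on size it was the reverse, with 3844 genes (25.8%) above 0 and 4862 (32.7%) below 0 in both pairs. At least 2-fold in both pairs, 42 genes were higher, or 0.282% of all named genes, and 4 were lower, or 0.0269%. In the first pair alone 184 genes were at least 2-fold higher and in the second 76, so the shared 42 made up 22.8% of the first set and 55.3% of the second. For lower genes, 33 and 13 passed in the single pairs. At 1.5-fold, 133 genes (0.894%) were higher and 41 (0.275%) lower in both pairs. Of the 555 genes that were 1.5-fold higher in the first pair, 7 were 1.5-fold lower in the second. Protein-coding genes made up 113 of the 133 and 32 of the 41. Just inside the 2-fold limit lay TTC39B, which is outside the rule for naming genes, (1.01 and 1.11), GRB10 (1.04 and 1.02) and HMGCS1 (1.03 and 1.22), and just outside it DDIT3 (2.13 and 0.96), CST7 (1.17 and 0.98) and WARS1 (1.32 and 0.99).

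**Figure D1:**
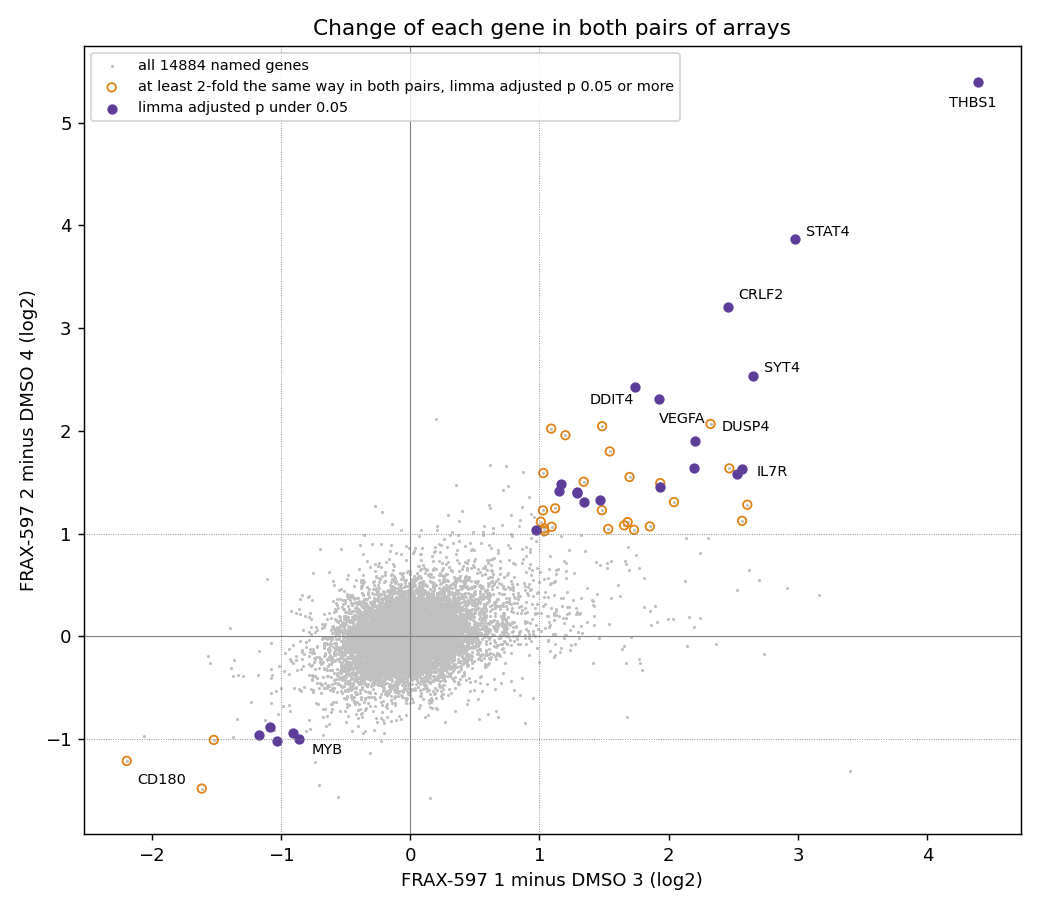
Each point is 1 of 14884 named genes, with its log2 difference FRAX-597 1 minus DMSO 3 on the x axis and FRAX-597 2 minus DMSO 4 on the y axis. Dotted lines mark 2-fold. Filled points passed limma (23 genes), and open circles moved at least 2-fold the same way in both pairs without passing it. THBS1 lies at 4.39 and 5.40, farthest from the cloud, and more genes lie in the upper right corner (42) than in the lower left (4).

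By limma, 18 genes rose (0.121%) and 5 fell (0.0336%), and in all 23 both FRAX-597 arrays lay beyond both DMSO arrays. These percentages of all named genes stand beside every count of rises and falls in a list below. The share of all named genes whose groups do not overlap was not counted. Before adjustment 1140 genes had a p under 0.05, where 744.2 would be 5% of the genes. The count rested on single arrays. With FRAX-597 2 left out 227 genes passed, with FRAX-597 1 left out 20, with DMSO 4 left out 7 and with DMSO 3 left out 5. Leaving out any 1 of the 4 arrays outside the comparison gave 2. THBS1 and SYT4 passed in every one of these 8 fits, and no gene passed when the 4 arrays were fitted alone (606 at an unadjusted p under 0.05).

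THBS1 encodes thrombospondin-1, a secreted glycoprotein that binds CD36 and CD47 and activates latent TGF-beta. Its level was 6.47 in DMSO 3 and 6.09 in DMSO 4, and 10.86 in FRAX-597 1 and 11.49 in FRAX-597 2. The groups were separated by more than 4 log2 units, and the rise was 29.7-fold (log2 change 4.89, SE 0.22; limma adjusted p = 0.000595). The other measured TGF-beta and extracellular matrix genes did not share it. Of 29 in that list, THBS1 was the 1 gene called, while 0.121% of all named genes rose. In both pairs 10 were above 0 and 9 below 0, beside 25.8% and 32.7% over all named genes. The median change was 0.02. The inhibitory SMAD7, itself a TGF-beta target, was at 7.71 and 7.70 in DMSO and 7.48 and 7.45 with FRAX-597 (limma adjusted p = 0.638). SKIL (0.63 and 0.26), CCN2 (1.06 and 0.39) and LTBP1 (0.32 and 1.02) were higher in both pairs, and none passed (0.407, 0.513 and 0.611). Whether TGF-beta signalling changed was not tested.

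SYT4, a synaptotagmin of vesicle traffic best known from neurons, was at 4.80 and 4.86 in DMSO and at 7.45 and 7.39 with FRAX-597. It rose by 2.59 (SE 0.14; limma adjusted p = 0.00102), with the smallest spread within groups of the large rises. Its DMSO levels were below the yardstick of 6.03, so the size of the rise is uncertain. It belongs to a broader list of neuronal genes, of which none of the other 8 measured passed, and the list's median was -0.02. Among genes of the blood platelet and its precursor, F2RL3, the thrombin receptor PAR4, rose with THBS1. It went from 5.80 and 6.56 to 8.32 and 8.14 (log2 change 2.05, SE 0.23; limma adjusted p = 0.029). The 14 measured genes of this broader platelet list, THBS1 and F2RL3 included, had a median of -0.03.

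Of the large rises 3 were in genes of the list of cytokine receptors and their signalling, 2 receptor chains and 1 transcription factor. STAT4, a transcription factor activated by interleukin-12 and type I interferon receptors, went from 5.70 and 6.04 to 8.68 and 9.91. It rose by 3.42 (SE 0.35; limma adjusted p = 0.029), and since the mean of its DMSO levels was below the yardstick, the size of this rise is uncertain too. CRLF2, the receptor chain for thymic stromal lymphopoietin (TSLP), went from 6.50 and 6.67 to 8.95 and 9.88 (log2 change 2.83, SE 0.26; 0.0254). IL7R, which pairs with CRLF2 to form the TSLP receptor and with the common gamma chain to bind interleukin-7, went from 6.95 and 7.07 to 9.52 and 8.70 (log2 change 2.10, SE 0.25; 0.032). In STAT4 and CRLF2 the second FRAX-597 array was the higher one, and in IL7R the first. The cytokine SOCS feedback gene SOCS3 had pair differences of 0.64 and 1.06 and the interleukin-4 receptor IL4R of 0.45 and 0.74, and neither passed (limma adjusted p 0.163 and 0.407). Over the 36 measured receptors and signalling genes, 3 rose, 0 fell and the median was 0.05. Over all named genes 0.121% rose, 0.0336% fell and the median was -0.02.

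Other rises were in stress and signalling genes. DDIT4 (REDD1), an inhibitor of the growth kinase mTORC1, went from 8.65 and 7.92 to 10.57 and 10.23 (log2 change 2.12, SE 0.25; limma adjusted p = 0.0306). The angiogenic factor VEGFA went from 7.45 and 8.16 to 9.65 and 10.06 (2.05, SE 0.24; 0.032). AVPI1, a vasopressin-induced gene, went from 7.51 and 7.62 to 9.70 and 9.25 (1.92, SE 0.16; 0.0207). The T-box factor TBX15 was at 8.33 and 7.63 in DMSO and at 10.07 and 10.06 with FRAX-597 (2.08, SE 0.20; 0.029). In each of these 4 genes the lower FRAX-597 array exceeded the higher DMSO array by more than 1 log2 unit.

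Smaller rises, between 1.32 and 1.69, were found for 6 more named genes. They were HIVEP1, a zinc finger protein that binds NF-kB sites (7.97 and 7.82 against 9.90 and 9.27), and FLRT2, a membrane adhesion protein (6.02 and 6.23 against 7.48 and 7.55). JOSD1, a deubiquitinase, was at 8.64 and 8.60 against 9.93 and 10.01, and THEMIS2, a signalling adaptor of myeloid and B cells, at 8.82 and 8.50 against 10.11 and 9.89. MALT1, a protease and scaffold of NF-kB signalling, was at 7.96 and 7.78 against 9.31 and 9.09, and SNAI1, a repressor of epithelial genes, at 7.32 and 7.28 against 8.48 and 8.76. The remaining 2 of the 18, named after their values were seen, were the microRNA gene MIR637 (pair differences 0.97 and 1.03) and the long non-coding LOC145474 (log2 change 1.28), whose DMSO levels of 5.46 and 5.29 were below the yardstick.

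**Figure D2:**
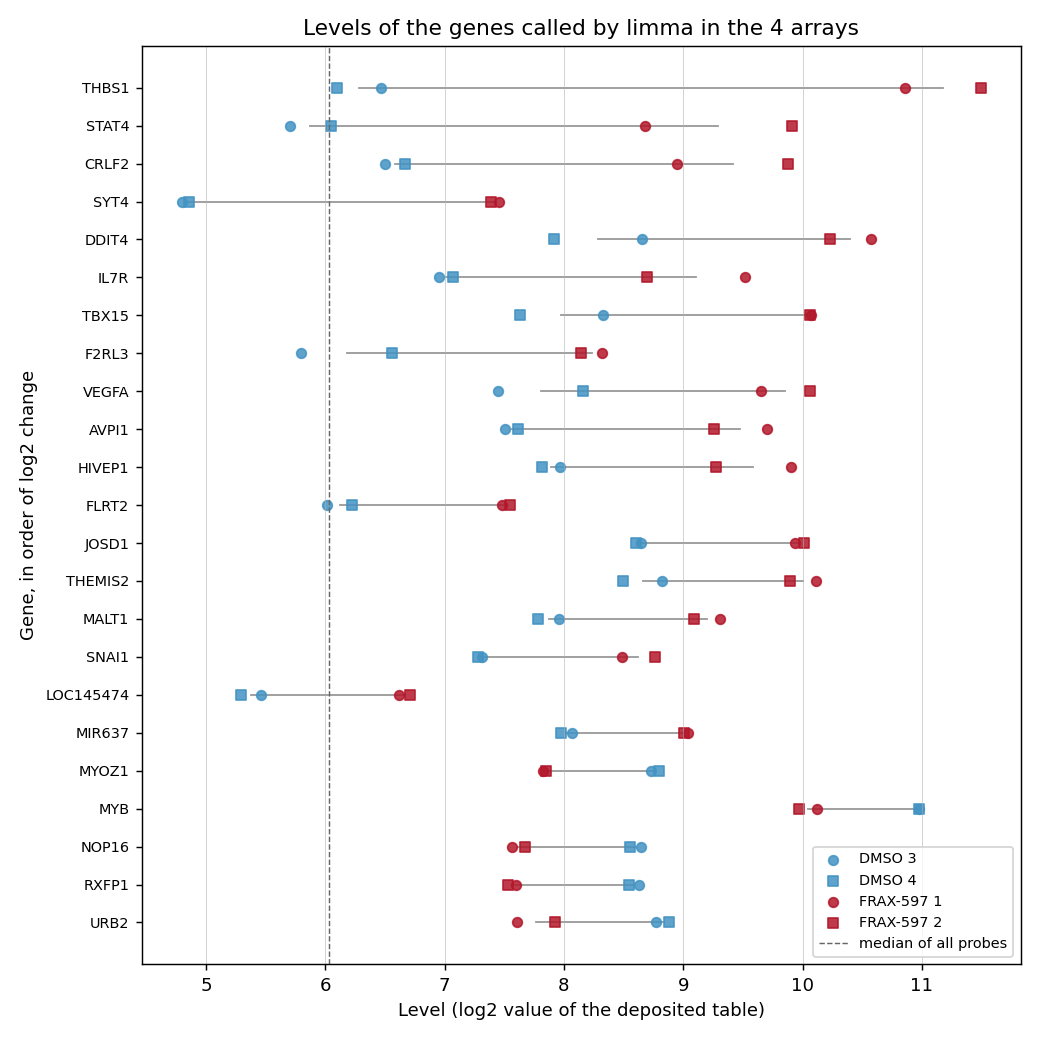
Log2 levels of the 23 genes that passed limma, in order of log2 change, with DMSO 3 and 4 in blue, FRAX-597 1 and 2 in red, a line between the group means and the median of all probes (6.03) dashed. Red and blue points do not overlap in any of these genes, and both DMSO levels of SYT4 and LOC145474 and the DMSO 3 levels of STAT4, F2RL3 and FLRT2 lie left of the dashed line.

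The 5 falls were between 0.92 and 1.07. MYB, a transcription factor of blood progenitors on which leukaemias with MLL fusions depend, had nearly the same level in both DMSO arrays, 10.98 and 10.97. It was at 10.12 and 9.97 with FRAX-597 and fell by 0.93 on the log2 scale (SE 0.11; limma adjusted p = 0.029). URB2, a factor of large ribosomal subunit assembly, was at 8.77 and 8.88 against 7.60 and 7.92. NOP16, a nucleolar protein encoded by a MYC target gene, was at 8.64 and 8.56 against 7.56 and 7.67. The relaxin receptor RXFP1 was at 8.63 and 8.55 against 7.60 and 7.53, and MYOZ1, a sarcomere protein, at 8.73 and 8.79 against 7.82 and 7.85. All 5 lost their call in 7 of the 8 fits that left out an array.

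Of the 4 genes at least 2-fold lower in both pairs, named in full after their values were seen, RXFP1 is the 1 that passed. CD180, a Toll-like receptor homologue of B cells and macrophages, was at 9.25 and 7.96 in DMSO and at 7.06 and 6.75 with FRAX-597 (log2 change -1.70, SE 0.36; limma adjusted p = 0.219). The others were MIR3686 (-1.61 and -1.48 in the pairs) and the pseudogene LOC100289656 (-1.52 and -1.01). Near them lay CCR2, the receptor for the monocyte chemokine CCL2, at 9.36 and 8.10 against 7.30 and 7.13 (log2 change -1.52, SE 0.36; adjusted p = 0.279). CYSLTR1, a leukotriene receptor, was at 8.18 and 8.24 against 7.05 and 7.42 (-0.97, SE 0.14; 0.0695). CD180 and CCR2 differed by more than 1 log2 unit between the DMSO arrays, and CYSLTR1 by less than 0.1. DUSP7, a phosphatase that inactivates ERK, had pair differences of -1.37 and -0.99 (adjusted p = 0.0674), and MYLIP, a ubiquitin ligase that targets the LDL receptor, of -1.34 and -0.81 (0.341).

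The ATF4 list had the highest median change of the 48 lists described, 0.82. Of 28 measured genes of the list 26 were above 0 in both pairs, 16 were at least 1.5-fold higher in both and 0 lower in both. Over all genes 25.8% were above 0 and 32.7% below 0 in both pairs, shares to set beside the counts of every list below. The list's medians were 0.93 in the first pair and 0.73 in the second. DDIT4 and VEGFA are the members that passed limma. The list, like the others, was chosen with earlier results of these arrays known, so its direction is a description.

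Members of the ATF4 list differed in how alike the pairs were. ATF4 itself was at 9.69 and 9.59 in DMSO and at 10.21 and 10.21 with FRAX-597 (log2 change 0.57, SE 0.10; limma adjusted p = 0.191). TRIB3, a pseudokinase induced by ATF4, had levels of 8.56, 8.37, 11.03 and 10.00 (2.05, SE 0.30; 0.0695). SESN2, a sestrin that restrains mTORC1 when leucine is low, had 8.54, 7.76, 10.58 and 9.07 (1.67, SE 0.45; 0.355), and ULBP1, a ligand of the NK cell receptor NKG2D, had 6.40, 5.16, 8.33 and 6.65 (1.71, SE 0.56; 0.488). In both genes the second FRAX-597 array exceeded DMSO 3 by less than 1 log2 unit. The mean of ULBP1's DMSO levels was below the yardstick, so the size of its difference is uncertain. The genes DDIT3 (CHOP), STC2 and GDF15 were much higher in FRAX-597 1 than in FRAX-597 2, with pair differences of 2.13 and 0.96, 2.62 and 0.65, and 1.91 and 0.14. ATF3 was higher in the first pair only (1.78 and -0.26). These 4, with ATF4, ASNS, CARS1 and TARS1, are outside the rule for naming genes and were chosen after their values were seen.

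Of the enzymes that make amino acids, ASNS, asparagine synthetase, was at 8.11 and 7.66 against 9.65 and 8.71 (log2 change 1.29, SE 0.29; limma adjusted p = 0.237). The serine synthesis enzymes were PHGDH (9.27 and 9.35 against 10.04 and 10.21; adjusted p = 0.0614), PSAT1 (11.13 and 10.69 against 12.07 and 11.88; 0.0752) and PSPH (pair differences 1.07 and 0.56; 0.353). None of these 4 genes passed. Of 11 measured serine, glycine and one-carbon enzymes 6 were above 0 and 3 below 0 in both pairs, with TYMS and GLDC, which are no part of serine synthesis, among the 3.

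Of 17 measured aminoacyl-tRNA synthetases, which charge tRNAs, 12 were above 0 and 4 below 0 in both pairs, and 7 were at least 1.5-fold higher. The 7 were WARS1 (pair differences 1.32 and 0.99), CARS1 (1.07 and 0.66), AARS1 (0.86 and 0.85), GARS1 (0.81 and 0.71), YARS1 (0.77 and 0.74), MARS1 (0.69 and 0.73) and TARS1 (0.69 and 0.61). AARS1, the alanine enzyme, was the nearest to the threshold (10.57 and 10.49 against 11.43 and 11.33; log2 change 0.85, SE 0.12; limma adjusted p = 0.0573). The members below 0 in both pairs were RARS1 (-0.26 and -0.19), KARS1 (-0.16 and -0.20), VARS1 (-0.26 and -0.04) and HARS1 (-0.17 and -0.04), named after their values were seen. No synthetase passed, and the median was 0.42. The synthetase list shares members with the ATF4 list, AARS1, GARS1 and NARS1 among them, so the 2 lists are not separate evidence. The unfolded protein response list, which shares inducing signals with ATF4, had 4 of 16 genes above 0 and 6 below 0 in both pairs and a median of -0.02. Its factor XBP1 had pair differences of 1.43 and 0.72 (adjusted p = 0.297).

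The letters before these genes' starts were compared, since the members moved together. The motif TGATGNAAN, a form bound by ATF4 with C/EBP proteins, was searched on both strands in RefSeq promoters (GRCh38.p14, 250 bases before to 50 after a start, any start of a gene). It was present for 345 of the 10749 named genes that have such a promoter (3.21%), for 16 of 103 genes at least 1.5-fold higher in both pairs (15.5%), and for 1 of 26 at least 1.5-fold lower (3.85%). Without the ATF4 and synthetase lists, 10 of 86 of the higher genes had it (11.6%). The higher genes had 1.55 starts each against 1.38 for all genes, and with the first listed start only the shares were 12.6% and 2.24%. A match is a description of these letters, not of binding.

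Synthetases with and without the motif were compared. The 7 with the motif, AARS1, CARS1, GARS1, IARS1, MARS1, NARS1 and TARS1, were all above 0 in both pairs, with a median change of 0.71. Of the 7 with a promoter but no match, 3 were above 0 and 3 below 0 in both pairs, and their median was -0.01. WARS1 (1.32 and 0.99) and YARS1 (0.77 and 0.74) are not among the genes with the motif. AARS1, GARS1 and NARS1 are also in the ATF4 list, and both lists were chosen with earlier results known. Whether the motif bears on the change was not tested. The matches of 6 genes and of the receptors IL7R and TREM1 are shown because they allow the same letters to be seen across genes of different function. Capitals mark the motif, each read in the orientation of the motif, and coordinates are GRCh38.p14.
ASNS (chr7:97872438-97872506, minus strand): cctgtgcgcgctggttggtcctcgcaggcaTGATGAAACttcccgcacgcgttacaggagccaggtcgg
AARS1 (chr16:70289656-70289724, plus strand): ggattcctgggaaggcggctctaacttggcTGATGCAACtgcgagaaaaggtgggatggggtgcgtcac
CARS1 (chr11:3057408-3057436, plus strand): tcctagaatcTGATGCAACcgccgccccg
MARS1 (chr12:57488053-57488081, minus strand): aatccctcgcTGATGCAACcggaaccggc
TARS1 (chr5:33440956-33440984, minus strand): ctggaccagcTGATGCAATcgaaaggcgc
GARS1 (chr7:30594834-30594862, minus strand): gctcggagcaTGATGAAATcgccgcgtaa
IL7R (chr5:35856645-35856713, plus strand): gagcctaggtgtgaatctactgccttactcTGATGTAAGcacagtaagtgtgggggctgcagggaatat
TREM1 (chr6:41286761-41286829, minus strand): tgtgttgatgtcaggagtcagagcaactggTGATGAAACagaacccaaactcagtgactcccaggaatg
The matches in AARS1, CARS1 and MARS1 share the 9 letters TGATGCAAC, and those in ASNS and TREM1 share TGATGAAAC. TREM1, an activating receptor of myeloid cells, was at 8.06 and 6.58 in DMSO and at 9.18 and 7.83 with FRAX-597. Its pair differences were 1.12 and 1.25, but FRAX-597 2 was below DMSO 3, and it did not pass (limma adjusted p = 0.692).

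Cholesterol synthesis genes were higher in both pairs for 14 of 17 measured members and lower in both for 1, PMVK. The medians were 0.36 in the first pair and 0.52 in the second, and 0.45 for the change. HMGCS1, which makes the precursor of mevalonate, was at 7.62 and 8.32 against 8.65 and 9.55 (log2 change 1.13, SE 0.32; limma adjusted p = 0.382). MSMO1, a sterol methyl oxidase, was at 10.38 and 9.74 against 11.30 and 11.10 (1.14, SE 0.20; 0.152), and INSIG1, a sterol-sensing brake on SREBP2, at 9.62 and 9.01 against 10.38 and 10.48 (1.11, SE 0.21; 0.192). No member of the list passed. Fatty acid synthesis genes did not show the same: 5 of 15 were above 0 and 3 below 0 in both pairs, with a median of 0.03. The sterol regulatory motifs TCACNCCAC and TCACNCGAC were present in the promoters of 3 of 15 members (FDPS, HSD17B7 and SREBF2; 20%) and of 1.90% of all named genes with a promoter. HMGCS1, MSMO1 and INSIG1 are not among the 3. Of 103 genes at least 1.5-fold higher in both pairs, 1 had a match (XBP1; 0.971%).

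MYC and its targets were lower. MYC was at 8.51 in both DMSO arrays and at 7.43 and 7.85 with FRAX-597 (log2 change -0.87, SE 0.15). It did not pass (limma adjusted p = 0.132), although the groups were separated by more than 0.6. Of 26 measured MYC targets 23 were below 0 in both pairs and 0 above 0 in both, with medians of -0.31 and -0.42. The 3 that were at least 1.5-fold lower in both pairs were NOP16, which fell, RRS1 (8.58 and 8.53 against 7.64 and 7.86; adjusted p = 0.0695) and RCL1 (7.37 and 7.43 against 6.75 and 6.77; 0.0876). RRS1 assembles the 5S particle of the large ribosomal subunit, and RCL1 acts in processing of the small-subunit RNA. NIP7 (-0.58 and -0.64), BYSL (-0.53 and -0.55) and NOP2 (-0.46 and -0.52), which also act in ribosome assembly, lay next, and NOP2 was named after its values were seen.

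Genes of RNA polymerase I and ribosomal RNA processing, another list, had 38 of 48 below 0 and 0 above 0 in both pairs, with medians of -0.19 and -0.37. The MYC target list also holds genes of ribosome assembly, RRS1, RCL1 and BYSL among them, so these lists are not separate evidence. URB2 fell, and PNO1 (-0.49 and -0.69; limma adjusted p = 0.22), WDR3 (-0.59 and -0.64; 0.341) and URB1 (-0.46 and -0.59; 0.27) followed. The ribosomal proteins had medians nearer to 0. Of 71 mitochondrial ribosomal proteins 45 were below 0 and 4 above 0 in both pairs, with a median of -0.11, and of 46 cytosolic ones 20 and 9, with a median of -0.05. MRPL17 (-0.59 and -0.42) and MRPS12 (-0.45 and -0.49) had the largest differences of the mitochondrial list, and none of these 117 genes passed.

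The E-box CACGTG, the letters that MYC with MAX binds, is palindromic. It was present in promoters of 11% of all named genes, of 16 of 22 MYC targets (72.7%) and of 14 of 42 genes of the ribosomal RNA list (33.3%). MYC targets with it had a median change of -0.38 and the 6 without it of -0.36. In the ribosomal RNA list the medians were -0.34 with it and -0.23 without. A share within a list describes the genes listed, whatever their change in these arrays. Of 26 genes at least 1.5-fold lower in both pairs with a promoter, 2 had it, RCL1 and SFXN2 (7.69%, against the 11% of all named genes). The sites of 5 genes are shown because each lies within 50 bases after a listed start, with the E-box in capitals on the gene's own strand (GRCh38.p14).
RCL1 (chr9:4792938-4792963, plus strand): tgttccaaacCACGTGgacgcgtctg
NOP2 (chr12:6568242-6568266, minus strand): gtccggattgCACGTGgagggccgc
BYSL (chr6:41921517-41921542, plus strand): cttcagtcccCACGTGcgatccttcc
PUS7 (chr7:105522228-105522253, minus strand): cgctgcgccgCACGTGtgcgagcccg
PNO1 (chr2:68157887-68157912, plus strand): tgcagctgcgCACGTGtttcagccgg

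**Figure D3:**
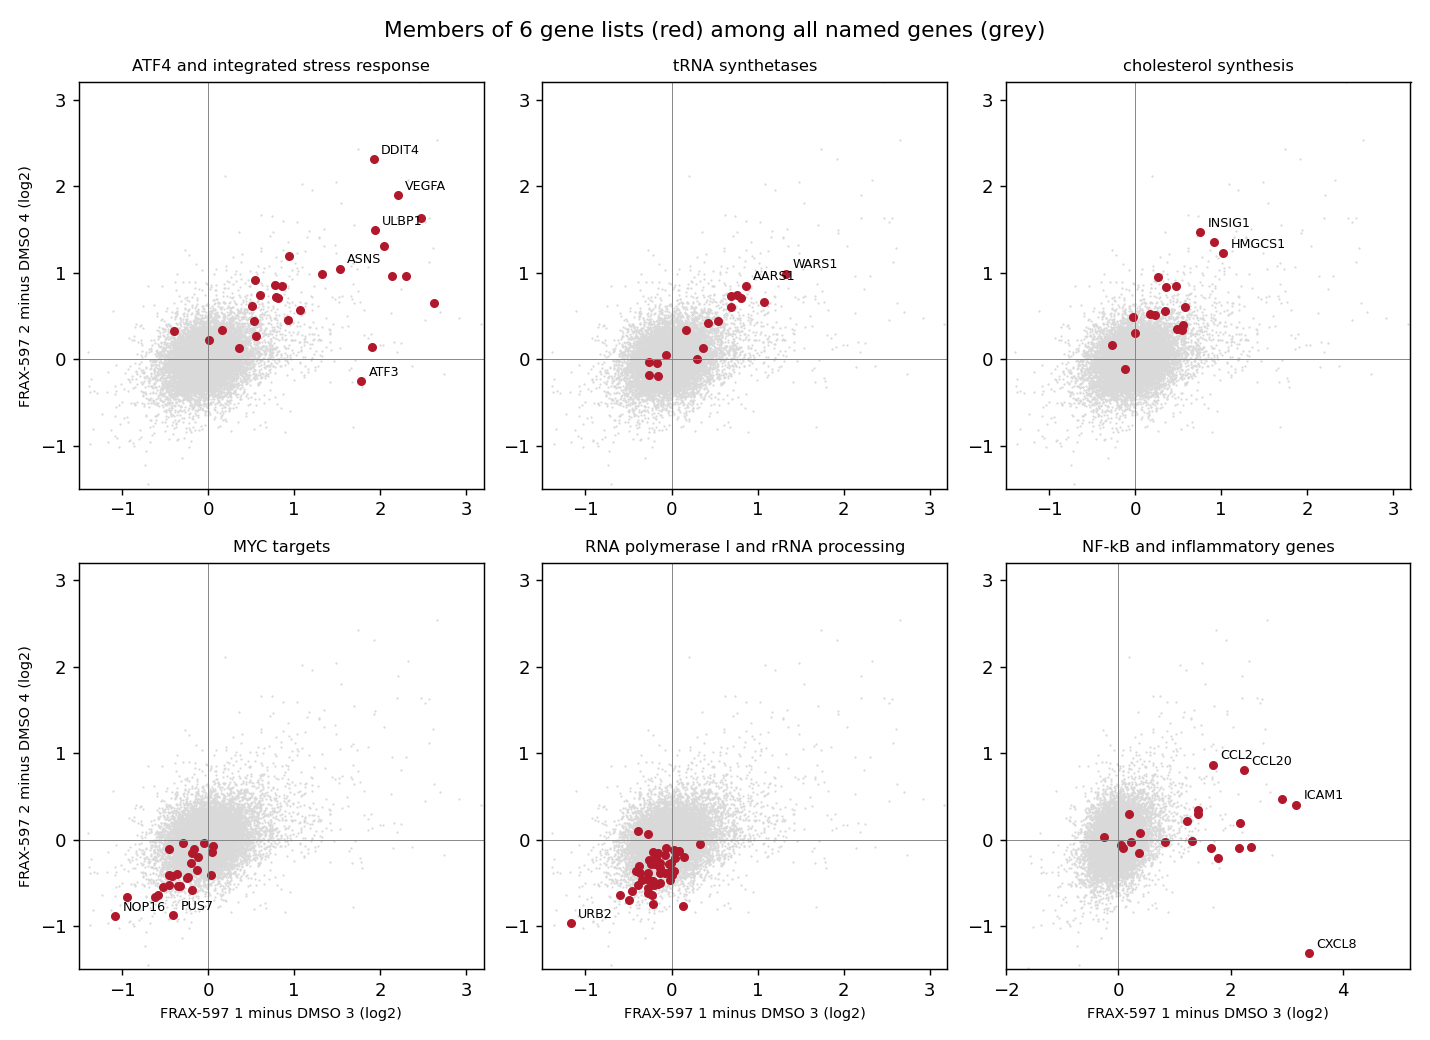
Log2 difference in the first pair (x axis) and the second pair (y axis) for the measured members of 6 gene lists in red, over all named genes in grey; grey genes beyond the axes are not drawn. ATF4, tRNA synthetase and cholesterol genes lie to the upper right and MYC and ribosomal RNA genes to the lower left in both pairs, while inflammatory genes spread along the x axis around a second-pair median of 0.01. The ATF4 and tRNA synthetase lists share members.

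Cell cycle genes of the G1 to S step were below 0 in both pairs for 27 of 37 and above 0 for 3, with medians of -0.32 and -0.14. E2F7, an E2F target and repressor, had pair differences of -0.60 and -0.46, MCM10, a replication factor, of -0.66 and -0.32, and the phosphatase CDC25A of -1.18 and -0.38. Cyclin E1 (CCNE1), named after its values were seen, had -1.55 and -0.27. None passed (limma adjusted p 0.291 to 0.398 for these 4). Of 48 mitotic genes 9 were above and 11 below 0 in both pairs, beside 25.8% and 32.7% over all named genes. Their median was -0.04. DNA repair genes were below 0 in both pairs for 19 of 26, with a median of -0.17. The heat shock list had 12 of 13 members below 0 in both pairs and a median of -0.28. HSPA1A and HSPA1B, near-identical copies of inducible HSP70 whose probes may not tell them apart, had differences of -1.38 and -0.31, and -1.33 and -0.37 (adjusted p 0.405 and 0.39). HSPH1 had -0.87 and -0.33 (0.291).

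Single growth-factor signalling genes went both ways. DUSP4, a nuclear phosphatase of ERK and JNK, had a pair difference of 2.32 and 2.07. Its levels were 7.71 and 6.39 in DMSO and 10.04 and 8.45 with FRAX-597, so FRAX-597 2 exceeded DMSO 3 by less than 1, and it did not pass (log2 change 2.19, SE 0.56; limma adjusted p = 0.322). DUSP7 was lower, as given above. EGR1, an early ERK target, was at 9.58 and 9.66 against 8.68 and 9.15 (-0.70, SE 0.16; 0.241), and EGR3 had pair differences of -0.67 and -0.71 (-0.69, SE 0.15; 0.219). Another factor of the early response, FOSL2, was at 8.70 and 8.52 against 9.79 and 9.59 (1.08, SE 0.15; 0.0573). Of 18 ERK output genes 5 were above 0 and 6 below 0 in both pairs. Of the 24 measured PAK partners and substrates' genes 5 were above 0 and 7 below 0 in both pairs, 0 passed and the median was 0.01. Both lists were near the shares over all named genes, 25.8% above and 32.7% below 0 in both pairs.

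Survival and growth-restraint genes moved singly. CFLAR (c-FLIP, an inhibitor of caspase-8) had differences of 1.47 and 0.70 (limma adjusted p = 0.176), MCL1 of 0.50 and 0.33 and BCL2 of -0.21 and -0.82. Of 21 genes of the BCL2 family list 7 were above 0 and 7 below 0 in both pairs. CCNG2, a cyclin that accumulates in arrested cells, was at 6.65 and 6.54 against 7.88 and 7.38 (log2 change 1.04, SE 0.17; adjusted p = 0.107). ARRDC3, an arrestin-domain protein, had 0.68 and 0.81, and the insulin receptor adaptor GRB10 had 1.04 and 1.02 (0.619 and 0.157). Over 26 genes of the FOXO list 13 were above 0 and 6 below 0 in both pairs, with a median of 0.12. The forkhead motif GTAAACA was present in promoters of 7 of 22 members (31.8%, against 3.77% of all named genes with a promoter), which had a median change of -0.04 against 0.16 for those without it. The share of 31.8% describes the genes listed, whatever their change in these arrays.

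Inflammatory genes are the list on which the pairs differed most. Its 22 measured genes had a median difference of 1.42 in the first pair and of 0.01 in the second. Of these, 10 were above 0 and 0 below 0 in both pairs, and 0 passed. The adhesion molecule ICAM1 was at 7.47 and 6.19 in DMSO and at 10.64 and 6.60 with FRAX-597, so FRAX-597 2 lay below DMSO 3 (limma adjusted p = 0.832). The neutrophil chemokine CXCL8, named after its values were seen, was at 6.66 and 6.20 against 10.06 and 4.89, higher in the first pair by 3.40 and lower in the second by a difference of -1.31. CCL2, a monocyte chemokine, was at 8.82 and 5.42 against 10.50 and 6.29 (log2 change 1.28, adjusted p = 0.945). CCL20 (2.24 and 0.81) and the kinase IRAK2 (2.92 and 0.47) were above 0 in both, CCL20 from DMSO levels below the yardstick. Early response genes likewise had medians of 0.74 and 0.12.

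DMSO 3 and FRAX-597 1 also shared higher levels of interferon genes. Over 28 such genes DMSO 3 exceeded DMSO 4 by a median of 1.38, against 0.01 over all genes, while the median change with FRAX-597 was 0.19 in the first pair and -0.18 in the second. IFIT1, an interferon-induced RNA-binding protein, was at 9.39 in DMSO 3 and 8.98 in FRAX-597 1, and at 6.58 in DMSO 4 and 5.78 in FRAX-597 2. The inflammatory list had a DMSO 3 minus DMSO 4 median of 0.40, and monocyte and macrophage genes of 0.29. The part of this shared difference in the limma results was not tested. Among 36 monocyte and macrophage genes 10 were above 0 and 11 below 0 in both pairs, with a median change of 0.01. The scavenger receptor CD36 was at 7.85 and 5.98 against 7.10 and 5.57, and the nuclear protein MNDA at 10.42 and 9.01 against 9.74 and 8.05, both lower in each pair with groups that overlapped. The costimulatory receptor CD86 was at 6.04 and 5.87 against 6.60 and 6.88 (log2 change 0.79, SE 0.18; adjusted p = 0.262). The mean of its DMSO levels was below the yardstick.

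**Figure D4:**
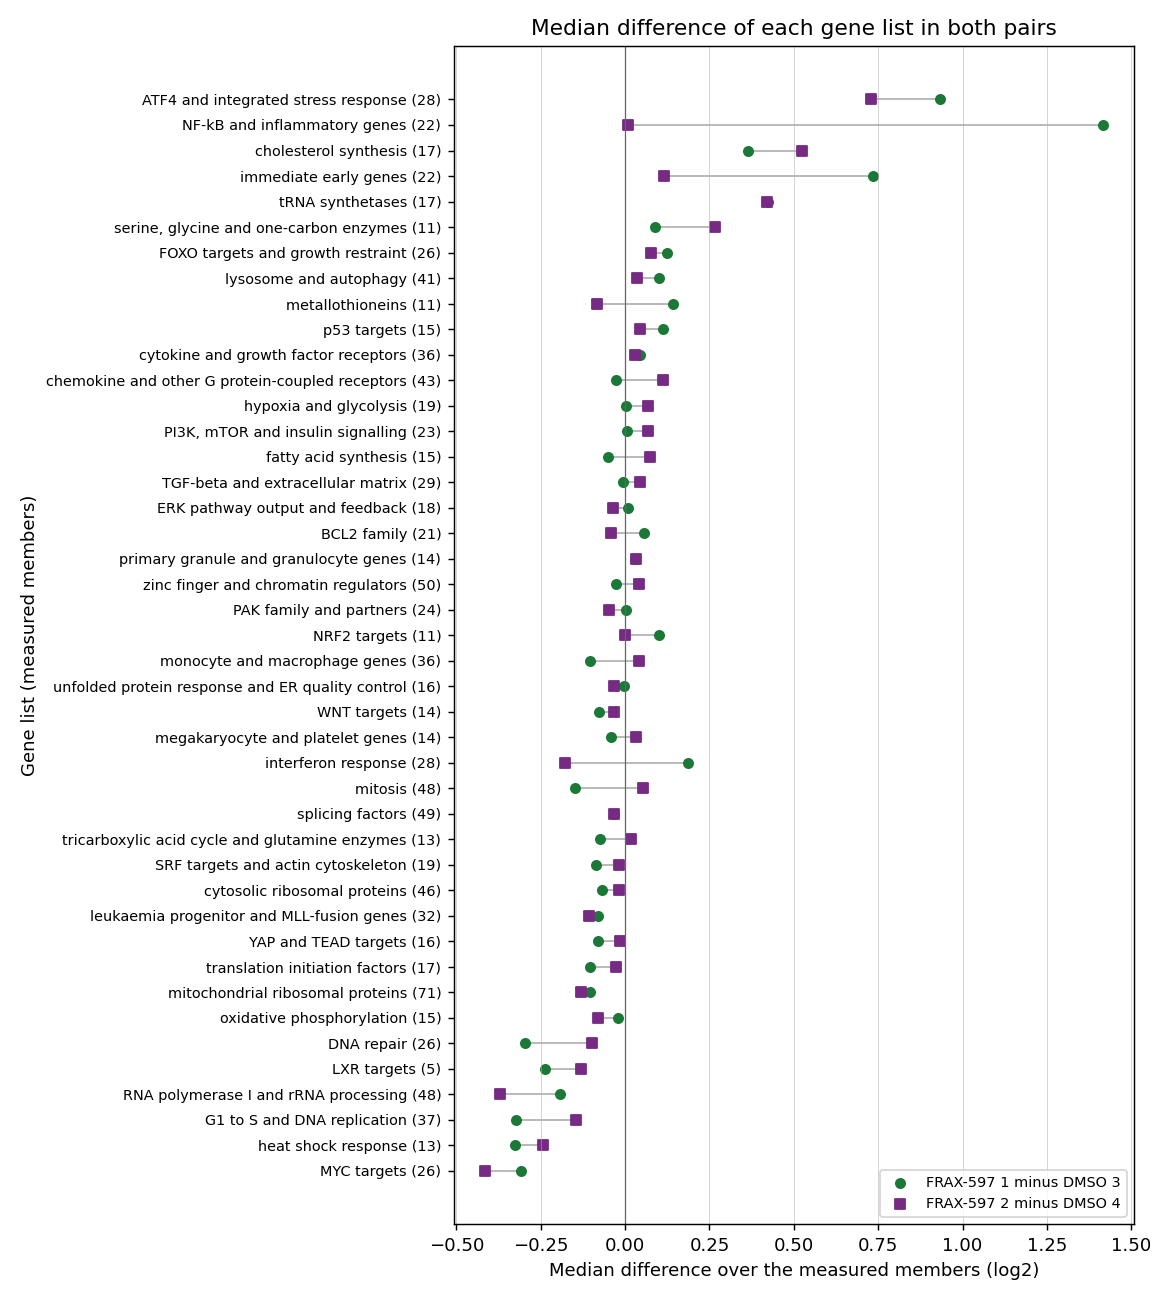
Median log2 difference of the described gene lists, cell type markers left out, in the first pair (circles) and the second pair (squares), joined by a line and ordered by median change, with the number of measured members in brackets. The ATF4 list lies at 0.93 and 0.73 and MYC targets at -0.31 and -0.42, with both pairs on 1 side of 0, whereas inflammatory genes lie at 1.42 and 0.01.

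Of 50 chromatin and zinc finger genes 21 were above and 15 below 0 in both pairs, beside 25.8% and 32.7% over all named genes. HIVEP1 was their 1 rise. The chromatin remodeller CHD2 had pair differences of 1.12 and 0.61 and the demethylase KDM7A of 0.86 and 0.72 (limma adjusted p 0.418 and 0.357), KDM7A from DMSO levels below the yardstick. ARID5B, a DNA-binding partner of a histone demethylase, had -0.72 and -1.07 (adjusted p = 0.0573), from DMSO levels of 5.67 and 5.87 that were also below it. Of 32 leukaemia progenitor and MLL-fusion genes, MYB was the 1 that fell, 15 were below 0 and 7 above 0 in both pairs, and the median was -0.07. The receptor FLT3 was at 6.93 and 6.71 against 6.66 and 6.33 (adjusted p = 0.813). Among 43 chemokine and other G protein-coupled receptors, F2RL3 rose and RXFP1 fell. The complement receptor C3AR1 was at 7.32 and 5.46 against 8.98 and 6.19, higher in each pair with groups that overlapped, and the prostaglandin receptor PTGER4, named after its values were seen, at 9.98 and 9.80 against 9.28 and 8.35 (-1.08, SE 0.26; 0.297). Hypoxia and glycolysis genes had a median of 0.04 although VEGFA is a member, and oxidative phosphorylation genes one of -0.11, with 9 of 15 below 0 in both pairs. In the protein synthesis machinery outside the ribosome, 6 of 17 initiation factors were above 0 and 8 below 0 in both pairs.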

How the data were processed

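Total RNA was labelled with biotin and hybridised to 1-colour Affymetrix whole-transcript arrays, per the labels. The authors' deposited table holds log2 values for 53617 probes with 0 missing values. Per the submitters' processing notes, Affymetrix Expression Console was used, and also Transcriptome Analysis Console. The summarisation and normalization are not given in the sources used here, nor are background levels, and precision is limited by there being 2 arrays a group. Medians over all probes were 6.00 to 6.05 in the 4 arrays compared and 5.51 to 5.55 in the other 4.

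Of the probes, 16098 had 1 gene symbol in the platform annotation, 0 had several and 37519 none. All 16098 matched the RefSeq gene reference. The probe with the highest mean over all 8 arrays was kept for 779 genes with several, which left 14884 genes. limma 3.58.1 (R 4.3.3; lmFit, eBayes, two-sided) was fitted to 8 arrays in 4 groups of 2, without the pairs, and was tested on simulated data. The members and lists were chosen with earlier results of these data known: 53 lists, of which 48 with at least 5 measured genes are described by counts and medians. Amino acid transporters, histone and proteasome genes and erythroid and fibroblast markers (0, 0, 2, 4 and 2 measured) are not. The rule for named genes took THBS1, SYT4, DDIT4, MYB, MYC and PAK genes; genes that passed with groups that did not overlap; the 12 largest rises and falls by the smaller of both pair differences; and up to 5 members a list. Small RNAs, LOC and LINC symbols and pseudogenes were left out. Promoter sequences are RefSeq's (GRCh38.p14) for 10749 genes. Alternatives covered the controls, the pairs, normalization, a filter on low values, the probes per gene and each array left out.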

Additional observations from a re-analysis of the deposited data

Results flagged for a closer look

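The comparison rests on named genes, and 4 probes without a gene name passed limma when every probe was tested. Probe 16903897 was at 7.04 and 6.81 in DMSO and at 10.67 and 10.55 with FRAX-597, a log2 change of 3.684 (limma adjusted p = 0.000773 over all probes). Probe 16786058 went from 3.94 and 4.20 to 6.00 and 6.19 (2.029), probe 16893663 from 8.05 and 7.83 to 9.97 and 9.73 (1.91), and probe 16926292 from 5.75 and 6.00 to 7.59 and 7.83 (1.834), each at an adjusted p of 0.0361. In all 4 both FRAX-597 arrays were above both DMSO arrays. No group has the 4 arrays that a check for a single distant array needs.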

How the results depend on the processing

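The count of 23 called genes depended on the controls and on the spread. With all 4 DMSO arrays as controls it was 5, with the pairs as a replicate block 202 (143 higher, the 23 among them), with the 4 arrays alone 0 (606 at an unadjusted p under 0.05) and with these and the replicate block 0 (1689). The labels do not pair the arrays, and the pairs follow the order in which the arrays are listed. The differences within the DMSO and within the FRAX-597 arrays correlated at r = 0.65 across genes. With every probe as a feature the count was 6, of which 2 have a gene name, and with an array left out 2 to 227; a group left with 1 array is then assumed to vary like the others. The count of 46 genes moving alike was 174 at 1.5-fold, 24 with the pairs crossed (22 of them among the 46) and 22 over all 4 differences; it has no value with an array left out. Quantile normalization, centring, a filter on low levels and the mean of probes kept both counts within 1.5 times.

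Of 1864 values for 110 single genes, 1527 kept direction and side of the threshold, 219 lost a call, 98 gained one and 20 turned sign. With all 4 DMSO arrays as controls HARS1 was at 0.1884, VARS1 at 0.3091 and IFIT1 at 0.3131. With an array left out the log2 change ran from -0.1963 to 2.588 for C3AR1, from -0.828 to 3.382 for CCL2, from -0.2339 to 3.805 for ICAM1, from -1.666 to 0.02838 for MNDA, from -1.523 to 0.3498 for CD36, from -0.06597 to 0.1669 for PAK4 and from -0.1807 to 0.4633 for PAK5. It ran from -0.2069 to 1.73 for ATF3, from -1.539 to 3.626 for CXCL8, from -0.01401 to 2.059 for GDF15, from -0.4039 to 0.04149 for KARS1 and from -2.198 to 1.001 for IFIT1. The cause was not tested. Of 336 list medians 45 had the other sign, 2 of them in lists with a reported size of at least 0.2.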
